A study of Rattus norvegicus with 9 samples.

Results

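Of 45598 non-control probes on a rat expression array, 1250 carried a gene name of Olr followed by a digit, the rat symbols of olfactory receptors, and 184 of these were detected in the amygdala. The probes were selected on their own signal: a probe had to lie well above background on 4 or more of the 9 arrays, in whichever group. Detection and signal level are therefore described here without a test. The 184 probes stood for 182 of the 1180 Olr genes on the array. One of them, Olr1, is by the array's own description a lectin-like receptor for oxidised low-density lipoprotein that shares only its symbol with the family, which left 183 probes of olfactory receptors. Current RefSeq names (assembly GRCr8) were found for all 184, 181 by transcript accession and 3 by symbol or synonym.

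The arrays held amygdala RNA of 9 female SHR, the spontaneously hypertensive rat, an inbred strain with high blood pressure, with 1 rat on each array. The ovaries of every rat had been removed at 4 weeks of age, so neither group had ovarian hormones of its own. After 1 week of recovery an osmotic minipump under the skin released either polyethylene glycol vehicle (OV, n = 4, labelled replicates 1, 2, 3 and 5) or estradiol at 2 µg a day (OV+E2, n = 5) until tissue was taken at 9 weeks of age. Both amygdalae of a rat were pooled, and the tissue is a mixture of cell types, so fewer cells of a type and less RNA per cell cannot be told apart in any value below.

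Olfactory receptors are G protein-coupled receptors that cross the membrane in a bundle of helices, and they form the largest gene family of rodents. In the nose each sensory neuron displays a single receptor type, whose activation runs through the G protein Golf (Gnal), adenylyl cyclase 3 (Adcy3), a cyclic nucleotide-gated channel (Cnga2, Cnga4, Cngb1) and the chloride channel anoctamin 2 (Ano2). Class I receptors resemble those of fish and class II receptors are particular to land vertebrates. Transcripts of the family are also known from tissues outside the nose, brain included, usually at low levels.

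Each array probe is a 60-base sequence, and related receptors share stretches of it. The probes below are those the results turn on, each with its position in rat build rn4 as the files give it, 5′ to 3′. In the first group of 3 the capitals mark a match to AANCCNNTNATNTA, the letters of codons for the conserved stretch that ends the seventh helix of these receptors.
Olr1400, chr10:34970188-34970247 (+): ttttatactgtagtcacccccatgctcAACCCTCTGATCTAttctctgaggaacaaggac
Olr1l, chr1:64221961-64222020 (+): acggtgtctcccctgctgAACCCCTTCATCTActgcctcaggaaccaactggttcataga
Olr528, chr3:70279758-70279817 (-): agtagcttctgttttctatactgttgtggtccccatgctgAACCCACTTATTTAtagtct
This motif, searched on both strands, was in 15 of the 184 detected probes (8.15%), in 83 of the 1066 other Olr probes (7.79%) and in 61 of the 44348 probes of other genes (0.138%). Detected and undetected probes thus held it at about the same share. A second probe of Olr528 lies directly beside the first, and the 2 probes of Olr875 overlap by 53 bases, marked by capitals.
Olr528, chr3:70279698-70279757 (-): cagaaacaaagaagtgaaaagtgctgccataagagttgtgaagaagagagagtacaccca
Olr875, chr7:2314461-2314520 (+): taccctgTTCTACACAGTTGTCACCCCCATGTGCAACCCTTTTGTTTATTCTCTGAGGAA
Olr875, chr7:2314468-2314527 (+): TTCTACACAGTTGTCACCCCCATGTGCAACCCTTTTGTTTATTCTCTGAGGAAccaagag
The next 6 probes are shown because they gave the clearest values in the comparison of the groups, the first 4 lower and the last 2 higher in OV+E2, and a seventh, Olr1262, because a single array set its value. They hold no capitals.
Olr715, chr3:74147328-74147387 (-): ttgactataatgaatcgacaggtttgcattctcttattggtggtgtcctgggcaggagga
Olr125, chr1:161506661-161506720 (-): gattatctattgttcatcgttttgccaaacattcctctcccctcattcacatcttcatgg
Olr567, chr3:71196637-71196696 (-): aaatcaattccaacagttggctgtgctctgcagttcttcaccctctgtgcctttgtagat
Olr1105, chr7:137076985-137077044 (-): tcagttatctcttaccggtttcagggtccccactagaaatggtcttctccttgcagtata
Olr728, chr3:74436623-74436682 (+): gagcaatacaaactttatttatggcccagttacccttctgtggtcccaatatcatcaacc
Olr50, chr1:160503931-160503990 (+): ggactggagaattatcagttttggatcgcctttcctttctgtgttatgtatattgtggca
Olr1262, chr8:41027755-41027814 (+): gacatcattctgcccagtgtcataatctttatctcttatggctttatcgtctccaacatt
Of the 184 detected probes, 74 shared an exact run of at least 16 bases with a probe of another position on the array, 29 a run of at least 20 and 7 a run of at least 30, on either strand. The longest run between different receptors was 39 bases, between Olr921 and Olr903. A signal at such a probe can include RNA of the relative. In GRCr8 the span of 3 detected receptors overlapped that of a gene outside the family: Olr132 with the embryonic globin gene Hbe1, which lies in the globin cluster that class I receptors flank, Olr40 with a pseudogene and Olr385 with a long non-coding RNA. Placement within exons was not analysed here. The coding sequence of an olfactory receptor usually lies in a single exon.

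Slide and signal strength touch every value below. Slide 1 carried 3 OV rats (replicates 1 to 3) beside OV+E2 replicates 1 and 2. Slide 2 carried a lone OV rat (replicate 5) beside OV+E2 replicates 3 to 5. The scanner file of OV replicate 3 was dim, with a 75th percentile signal of 129.7 against 556.8 to 737.6 on the other 8 arrays and 24230 probes well above background against 29055 to 31398. For 8 arrays the authors' deposited values of the detected probes followed the scanner files exactly, with a correlation of 1 on the log2 scale over 170 probes with complete values. For OV replicate 3 that correlation was 0.684, and the authors' column correlated at 0.958 with their column of OV replicate 5, where the scanner file had a correlation of 0.705. Which of the 2 holds the rat labelled OV replicate 3 is unknown. Some differences, not all, are therefore also given without that array. The detection counts and the shares among dim and bright probes were not recomputed without it. Nothing in the labels says that the rats were treated or dissected in more than one round, and p-values measure the spread between these rats.

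The number of Olr probes well above background was 151, 202, 91 and 260 on OV replicates 1, 2, 3 and 5. On the OV+E2 arrays it was 157, 159, 202, 213 and 227 for replicates 1 to 5. The lowest count was on the dim array OV replicate 3, and all 4 arrays of slide 2 held at least as many as any array of slide 1, with OV replicate 2 on slide 1 level with OV+E2 replicate 3 on slide 2. Over the 9 arrays 839 Olr probes (67.1%) were never above background, 153 were so on a single array, and 68 (5.44%) were so on all 9. The share detected by the rule was 14.7%, against 66.3% of all probes on the array.

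**Figure D1:**
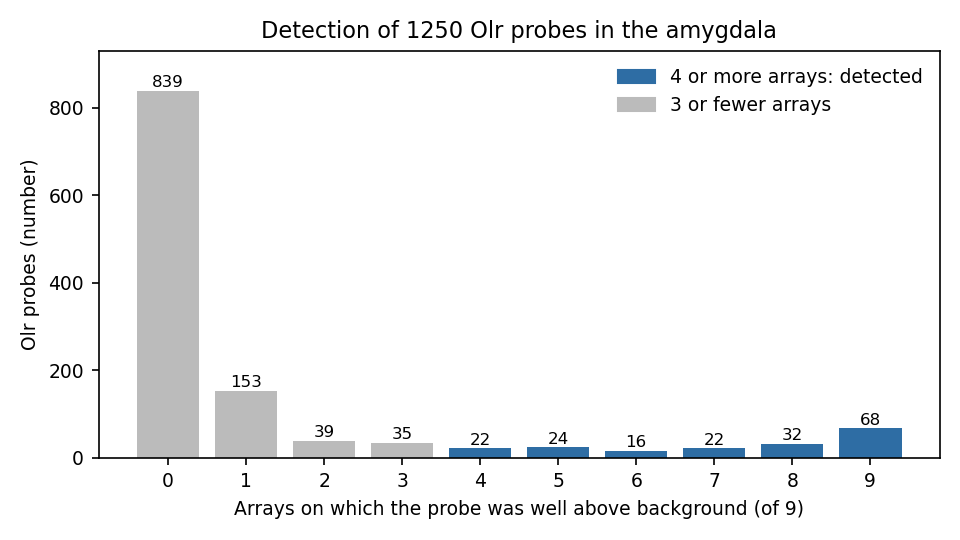
Number of Olr probes (y axis) by the number of arrays on which they were well above background (x axis, 0 to 9). The 184 probes on 4 or more arrays (blue) are the ones described here; 839 of 1250 were on no array.

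The threshold cut a continuous range. Just inside it, on exactly 4 arrays, the highest mean signals were those of Olr728 and of the second probe of Olr528, at −4.69 and −4.80. Just outside, on exactly 3 arrays, those of Olr204 and Olr825 were −4.78 and −4.95. These and all other levels are log2 signals minus the 75th percentile of the array, so 0 is the 75th percentile of the array's signals. The 22 probes on exactly 4 arrays and the 35 on exactly 3 thus lay side by side.

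Signals of the detected probes were low. Their means over the 9 arrays ran from −5.82 to 1.12 with a median of −4.13, while the median over all 30215 probes that pass the same filter was −1.09. In all, 137 of the 184 lay in the lowest 25% of those signals, and 4 had a mean above 0, the 75th percentile of the array's signals. Probes differ in how well they bind, so the order of their signals is not an order of RNA levels. Of the 1656 values, 28 were floor values that the scanner software puts in place of a signal at or below background, 17 of them on OV replicate 3.

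The 8 probes of highest mean signal were Olr1416, Olr1l, Olr1335, Olr1395, Olr1262, Olr325, Olr791 and Olr1375, each above background on all 9 arrays. Olr1416, named Or2t48e in RefSeq, read 0.89, 1.23, 2.20 and 1.17 on the OV arrays in the order of replicates 1, 2, 3 and 5, and 0.68, 0.91, 1.02, 1.09 and 0.91 on OV+E2 replicates 1 to 5; every later pair of lists keeps these orders. The groups of Olr1416 overlapped, and OV replicate 3 was the highest array. Olr1l, an olfactory receptor named Or6al1 in RefSeq, read 0.14, 0.35, 0.45 and 0.28 in OV and −0.30, −0.14, −0.03, 0.10 and −0.07 in OV+E2. Its OV arrays all lay above its OV+E2 arrays, with a difference of −0.39 (SE 0.11, n = 4 and 5, adjusted p = 0.286) in limma's moderated test. Olr1335 read 0.01, 0.75, 0.53 and 0.17 in OV against −0.28, 0.37, −0.26, −0.25 and −0.40 in OV+E2, and OV+E2 replicate 2 stood apart from the other 4 arrays of its group. Olr1375 was the steadiest of the 8, at −1.04, −0.89, −0.58 and −1.08 in OV and −1.07, −1.002, −0.79, −0.95 and −1.06 in OV+E2. Its difference of −0.08 (SE 0.12) was smaller than its SE.

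Olr1262 shows how far a single array can carry a value. It read −1.19, −0.78, 4.13 and −1.92 in OV and −1.11, −1.02, −0.38, −0.32 and −0.51 in OV+E2, so the file of OV replicate 3 lay far above every other array. The difference was −0.73 (SE 1.08) with that array and 0.63 without it. In the authors' deposited table the column of OV replicate 3, which does not follow that scanner file, read 151 for this probe, and those of OV replicates 1, 2 and 5 read 288, 383 and 174, on a linear scale. Similar gaps on the same scanner file were seen for Olr791 (−1.12, −0.64, 1.27 and −0.38 in OV), Olr184 (−5.53, −3.47, 1.37 and −3.64), Olr522 (−7.50, −5.11, −0.25 and −4.66) and the second probe of Olr528 (−6.23, −4.22, 0.48 and −4.46). Olr184, Olr522 and that probe of Olr528 had no other array near that level. OV replicate 3 was the highest of the 9 arrays for 68 detected probes and OV replicate 5 for 53.

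Chromosome 3 held 43 detected of 303 Olr probes, chromosome 1 held 42 of 293, chromosome 10 held 29 of 134 and chromosome 8 held 20 of 165. Among chromosomes with at least 5 Olr probes the share ran from 0 of 8 on chromosome 17 and 0 of 5 on the X chromosome to 21.6% on chromosome 10, 23.3% on chromosome 5 and 30% (3 of 10 probes) on chromosome 9. Chromosome 15 held 2 of 37, and both were Olr1605 and Olr1607 in a small group of 3 probes at chr15:12384784-12609335.

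**Figure D2:**
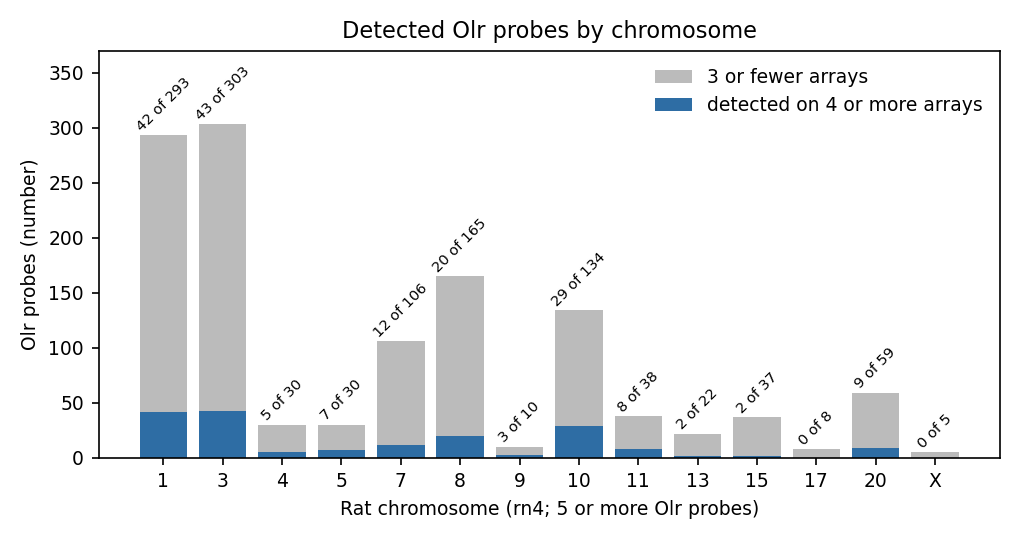
Olr probes (y axis) on each rat chromosome with at least 5 of them (x axis, build rn4), with the detected ones in blue and the numbers above each bar. Chromosomes 1 and 3 hold 42 and 43 of the 184 detected probes, and no probe was detected on chromosomes 17 and X.

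Neighbouring Olr probes less than 1000000 bases apart formed 50 groups along rn4, some of a single probe, 30 of them with at least 5 probes. Of those 30, 26 held a detected probe. The largest, at chr3:68577916-74747920, held 31 detected of 227 probes (13.7%), and the next, at chr1:160073295-166548874, held 29 of 191 (15.2%). A group at chr10:44095921-45896432 held 11 of 43 (25.6%), among them Olr1416. A group of 33 probes at chr15:25927781-27969099 held none. A group of 50 probes at chr1:214626666-217065256 held 3 (6%).

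Class I receptors, taken as the RefSeq families Or51 to Or56, all lay in the chromosome 1 group named above, with 21 of 127 probes detected (16.5%). Class II receptors had 151 of 1046 detected (14.4%), and 12 of 77 probes without a class from the symbol were detected (15.6%). On all 9 arrays the shares were 5.51%, 5.45% and 5.19%. Among families with at least 40 probes, the share detected ran from 6.9% for Or7 (4 of 58) and 8.54% for Or5 (14 of 164) to 20.5% for Or2 (25 of 122) and for Or13 (9 of 44). The base composition of the probes differed: the median G and C content was 44.2% for detected and 38.3% for undetected Olr probes. Over all probes on the array it was 43.3% for those detected and 41.7% for the rest. Whether composition or expression sets which receptors pass was not tested.

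Estradiol was then set against vehicle. Of the detected Olr probes 116 were lower (63%, beside 49.9% of all probes tested) and 68 higher in OV+E2. The median log2 difference of the 184 was −0.14, against a median of 0.001 over all 30215 probes tested. No Olr probe passed an adjusted p under 0.05 in limma's moderated test, adjusted by Benjamini-Hochberg over all tested probes, of which 0% were called, and the smallest adjusted p was 0.251. At an unadjusted p under 0.05, 43 Olr probes were lower (23.4%), beside 7.17% of all probes tested. In the other direction 6 Olr probes were higher (3.26%), beside 3.2% of all. The lower share stood above its background and the higher share at it.

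Because the probes are dim, they were also read against dim probes. In the lowest 25% of signals 11.7% of all probes were lower at an unadjusted p under 0.05, and 30 of the 137 Olr probes there (21.9%) were. Of those 137, 6 were higher (4.38%), beside 3.79% of all probes there. In the upper 75% the background was 5.67%, and 13 of 47 Olr probes (27.7%) were lower and none higher, beside 3.01% of all. The OV arrays lay entirely above the OV+E2 arrays for 21 Olr probes (11.4%), beside 4.02% of all probes, and the reverse held for 0 of 184, beside 2.88% of all. The 21 became 13 after normexp, 41 without OV replicate 1 and 29 without OV replicate 3. The share over all probes was not computed in these settings, so these counts have no background. Leaving out an array makes a lack of overlap easier for any probe.

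The split between lower and higher depended on how the arrays were scaled, although the median stayed below 0 under these 4 scalings. The share of Olr probes that were lower was 63% with the 75th percentile, 96.2% after normexp background correction with an offset of 50, 54.9% with median centring and 51.1% after quantile normalization. In the same order, 49.9%, 64%, 35.7% and 42.8% of all tested probes were lower. Normexp moved the median of all probes to −0.11 and median centring to 0.11; relative to these, the median of the Olr probes was −0.25 and −0.14, and it was −0.11 relative to all probes after quantile normalization. Without OV replicate 3 the median was −0.04 with 101 of 184 lower (54.9%, beside 47.7% of all tested probes). In that fit 38 Olr probes were lower at an unadjusted p under 0.05 (background 8.27%) and 10 higher (background 5.84%). None was called, beside 0.00331% of all probes. The Olr probes that were not detected, with both groups at or near background, had a median of −0.55 with OV replicate 3 and −0.10 without it, and undetected probes of other genes had −0.55 and −0.10. These shifts of undetected probes are no measure of RNA.

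Among the probes of smallest p in the lower direction, all 10 lay lower on both slides and had no overlap between the groups. They were picked by p on these same values, so both traits are partly built in. Olr715 (Or4a77, family 4) read −4.03, −3.01, −3.21 and −2.95 in OV and −4.45, −4.82, −5.81, −5.12 and −5.70 in OV+E2. The means were −3.30 ± 0.50 against −5.18 ± 0.58 (SD), a difference of −1.88 (SE 0.33, n = 4 and 5, adjusted p = 0.251) in limma's test. It passed the background in 3 OV rats and 2 OV+E2 rats, and OV+E2 replicates 3, 4 and 5 were the lowest. Olr1400, whose probe covers the conserved seventh-helix stretch, read −3.17, −3.27, −2.73 and −2.60 in OV and −3.70, −3.54, −3.85, −3.69 and −3.91 in OV+E2. Its difference was −0.80 (SE 0.16, n = 4 and 5, adjusted p = 0.252), and its 5 OV+E2 arrays lay close together. A probe of the neighbouring Olr1401 shares 29 bases with it and showed a difference of −0.87 (SE 0.22), so the 2 values may not be independent.

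Olr125 (Or51l4, class I) read −2.47, −2.08, −1.91 and −2.11 in OV and −2.79, −2.91, −2.91, −3.34 and −3.66 in OV+E2, a difference of −0.98 (SE 0.20, n = 4 and 5, adjusted p = 0.252) in limma's test. It was above background on all 9 arrays. Olr1516 (Or1p1) read −3.74, −2.91, −3.46 and −2.54 in OV against −4.17, −4.40, −4.44, −4.27 and −5.06, with a difference of −1.30 (SE 0.27). Olr727 (Or4c127) read −4.37, −4.00, −3.87 and −3.27 against −4.86, −5.35, −4.75, −4.69 and −5.37, with a difference of −1.13 (SE 0.24). Both had OV replicate 5 as their highest array.

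Olr567 (Or8w1b) and Olr1105 (Or8s5) had the highest signals of the 10 and were above background on all 9 arrays. Olr567 read −1.64, −1.33, −0.86 and −1.16 in OV and −1.81, −1.81, −2.26, −2.35 and −2.46 in OV+E2, a difference of −0.89 (SE 0.20, n = 4 and 5, adjusted p = 0.252) in limma's test. Olr1105 read −1.93, −1.79, −1.18 and −1.50 and −2.31, −2.15, −3.10, −3.17 and −3.32, a difference of −1.21 (SE 0.28, n = 4 and 5, adjusted p = 0.252) in the same test. For both, the 2 OV+E2 arrays of slide 1 lay between the OV arrays and the 3 OV+E2 arrays of slide 2. Olr312 (Or13a25) read −3.63, −3.37, −3.87 and −2.88 in OV and −4.13, −4.42, −4.76, −5.47 and −4.63 in OV+E2, a difference of −1.25 (SE 0.29). Olr1385 (Or2v2b) read −4.57, −4.12, −3.55 and −3.62 against −5.03, −4.68, −6.38, −5.47 and −5.90, a measured difference of −1.53 (SE 0.36). It was above background on 3 OV arrays and 1 OV+E2 array, so it passed the filter through the group where it was higher, its OV+E2 level rests mostly on signals near background, and it supports nothing beyond its values. The same limit holds for Olr715, with 2 OV+E2 arrays above background. Olr734 (Or4x11c) read −3.11, −3.17, −3.50 and −2.18 against −3.59, −4.09, −4.55, −3.99 and −4.52, a difference of −1.16 (SE 0.29). Adjusted p lay between 0.251 and 0.258 for all 10 in limma's test, and without OV replicate 3 their differences ran from −1.85 (Olr715) to −0.73 (Olr1400).

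**Figure D3:**
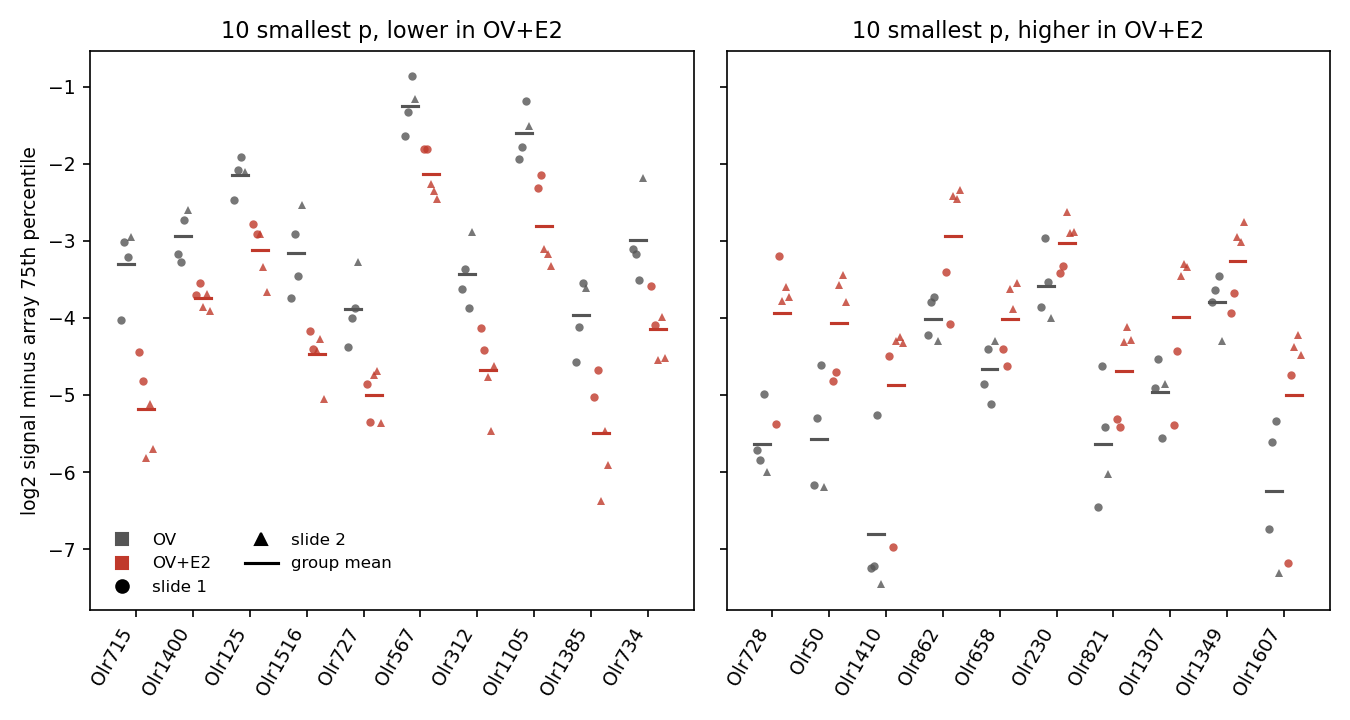
Scaled log2 signal (y axis) of the 10 Olr probes of smallest p that were lower (left) and higher (right) in OV+E2, with 1 point per array, grey for OV and red for OV+E2, circles for slide 1, triangles for slide 2 and a line at the group mean. On the left no OV+E2 array reaches an OV array of the same probe; on the right the red triangles of slide 2 lie above most other points while the slide 1 arrays of both groups mix.

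Among the probes of smallest p in the higher direction, none of the 10 had groups that did not overlap. They are not a match for the lower 10, since only 6 Olr probes were higher at an unadjusted p under 0.05 (background 3.2%). Adjusted p ran from 0.252 to 0.510 for the higher 10 and from 0.251 to 0.258 for the lower 10 in limma's test. Of the higher 10, 4 were not well above background on any OV array. For such a probe the fold is a lower bound, set against the lowest signal well above background on each OV array, or the probe's own signal where that was higher. Since the rule counts arrays of either group, a probe seen in only one group had to differ, and these values support nothing beyond themselves. Olr728 (Or4c52) read −5.71, −5.84, −4.99 and −6.00 in OV and −5.38, −3.19, −3.78, −3.60 and −3.72 in OV+E2, at least 2.56-fold higher (measured means −5.64 ± 0.45 against −3.94 ± 0.84 (SD), adjusted p = 0.252 in limma's test). OV+E2 replicate 1 lay among the OV arrays. Olr50 (Or52r1, class I) read −6.16, −5.30, −4.62 and −6.19 against −4.82, −4.70, −3.57, −3.44 and −3.79, at least 2.14-fold higher (adjusted p = 0.287 in limma's test). Its highest OV array, OV replicate 3, lay above OV+E2 replicates 1 and 2.

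Olr1410 (Or1x2c) read −7.25, −7.22, −5.26 and −7.46 in OV and −4.49, −6.98, −4.30, −4.25 and −4.32 in OV+E2, at least 1.34-fold higher, and Olr1607 (Or2t6) read −6.74, −5.61, −5.33 and −7.31 and −7.17, −4.74, −4.37, −4.22 and −4.48, at least 1.18-fold higher. In each of them 1 OV+E2 array of slide 1 read as low as the OV arrays. Another probe with no OV array above background, Olr830 (Or6d14), was at least 1.6-fold higher, with −5.23, −5.79, −3.34 and −6.76 in OV and −4.67, −4.62, −4.38, −4.23 and −4.01 in OV+E2 (adjusted p = 0.522 in limma's test). No detected probe was missing from all OV+E2 arrays.

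Olr862 (Or10ak14) was above background on 3 OV and all 5 OV+E2 arrays, and read −4.22, −3.80, −3.72 and −4.29 in OV and −3.41, −4.08, −2.42, −2.45 and −2.34 in OV+E2. Its difference of 1.07 (SE 0.37, n = 4 and 5, adjusted p = 0.374) in limma's test came from OV+E2 replicates 3, 4 and 5, which lay above all other arrays. Olr1307 (Or10d1), Olr1349 (Or9s27) and Olr230 (Or10a2) had the same shape, with OV+E2 replicates 3 to 5 at −3.45, −3.30 and −3.34, at −2.95, −3.02 and −2.75 and at −2.63, −2.90 and −2.89, above all their other arrays. Olr658 (Or4a66b) and Olr821 (Or2a57) completed the 10, at differences of 0.65 (SE 0.27) and 0.95 (SE 0.42). After normexp 6 of the 10 had a difference below 0: Olr1410, Olr658, Olr821, Olr1307, Olr1349 and Olr1607.

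Genes with a pair of detected probes gave a check of the probes themselves. For Olr528 (Or8h7) the adjacent probes disagreed: the first was above background on all 9 arrays, at −2.09, −1.83, −0.99 and −2.32 in OV and −2.17, −2.07, −1.58, −1.49 and −1.60 in OV+E2, and the second on 4, at −6.23, −4.22, 0.48 and −4.46 and −5.36, −6.24, −6.35, −5.79 and −5.03. Their differences were 0.03 (SE 0.27) and −2.15 (SE 1.14), and the second was at −0.78 without OV replicate 3. For Olr875 (Or10p22), whose probes share 53 of 60 bases, the first read −4.05, −3.97, −3.65 and −4.32 in OV and −4.50, −4.00, −3.40, −3.34 and −3.49 in OV+E2. The second read −5.17, −4.63, −5.34 and −4.28 and −4.85, −5.31, −4.41, −4.08 and −4.43. Their differences, 0.25 (SE 0.25) and 0.24 (SE 0.29), lay within their SE of each other and within 1 SE of 0.

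Family Or51 of class I stood out by its values and was picked out after they were seen. All 9 detected members were lower in OV+E2, with a median of −1.01, and 6 of them at an unadjusted p under 0.05 (background 7.17%, and 11.7% in the lowest 25% of signals); the median of the 9 detected Or52 members was 0.14. Or51 receptors include Olr63, the rat Or51e1, a receptor also known from prostate, at −1.21 (SE 0.35), and Olr143 (Or51i2) at −1.56 (SE 0.62). Olr125, Olr77, Olr120 and Olr56 were at −0.98 (SE 0.20), −1.07 (SE 0.29), −1.01 (SE 0.34) and −1.01 (SE 0.30). The other 3 were Olr75 at −0.89 (SE 0.55), Olr132 at −0.12 (SE 0.33) and Olr68 at −0.09 (SE 0.16). All 9 were also lower on each slide alone. Without OV replicate 3, Olr132 was at 0.01 and the other 8 stayed below 0. The family as a whole was not tested.

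The slides gave different pictures. On slide 1, with 3 OV and 2 OV+E2 arrays, 161 of 184 Olr probes were lower in OV+E2 (87.5%, beside 52.9% of all tested probes). The median over the 184 was −0.39. Of the 184, 0 were called (background 0%), 14 were lower at an unadjusted p under 0.05 (background 1.18%) and none was higher (background 0.487%). Without OV replicate 3, 148 were lower on slide 1 (80.4%, beside 51.5% of all tested probes), with a median of −0.23. On slide 2, OV replicate 5 is the only OV array and is assumed to vary like the 3 OV+E2 arrays. There 55 Olr probes passed an adjusted p under 0.05 in limma's test (29.9%, background 3.72%), 21 of them lower (background 1.79%) and 34 higher (background 1.94%), with a median over all 184 of −0.17. At an unadjusted p under 0.05, 55 were lower (background 11.1%) and 44 higher (background 9.17%). In all 105 Olr probes were lower on both slides (100 without OV replicate 3), 16 higher on both and 63 opposite, 56 of these lower on slide 1 and higher on slide 2. Over the 184 probes the slides' differences had a Pearson r of 0.347 and a Spearman rho of 0.331, given as a description since probes share arrays. Of the 10 probes named above in the higher direction, 8 were higher on both slides. They were picked by p on these same values, and 4 of the 10 were well above background on no OV array. The shared direction is therefore partly built in.

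**Figure D4:**
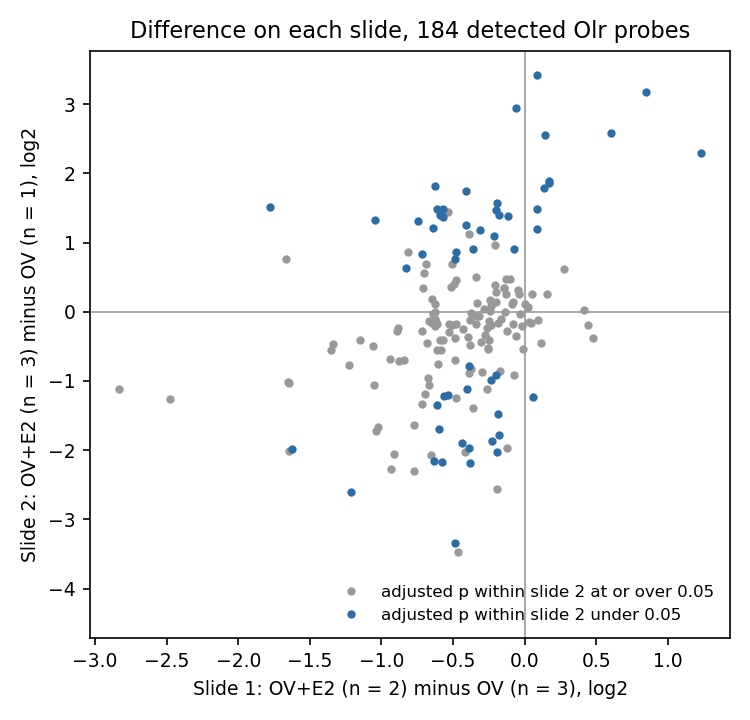
Log2 difference between OV+E2 and OV on slide 1 (x axis) and on slide 2 (y axis) for the 184 detected Olr probes, in blue where the adjusted p within slide 2 was under 0.05. Most points lie left of 0 on slide 1, while on slide 2 they reach from below −3 to above 3.

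The test of the difference between the slides called no Olr probe. At an unadjusted p under 0.05 the estradiol difference was more negative on slide 2 for 21 (11.4%, background 1.47%) and more positive for 31 (16.8%, background 2.18%). With slide as a block in the fit, the median was −0.31, with 49 lower (background 5.59%) and 5 higher (background 2.04%) at an unadjusted p under 0.05 and 0 called. In the same fit 46 Olr probes (25%) were higher on slide 2 than on slide 1 at that threshold, beside 4.46% of all probes, and 0 lower, beside 1.05%. Both groups were on both slides, in unequal numbers. With a lone OV array on slide 2, that array and the slide's estradiol difference cannot be told apart.

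Deviations from each probe's mean ran together on the 3 OV+E2 arrays of slide 2. Over the 184 probes they correlated at 0.508, 0.630 and 0.766 with each other, at −0.356 to −0.620 with OV replicates 1, 2 and 5, and at −0.0955 to −0.331 with OV+E2 replicates 1 and 2. OV replicates 1, 2 and 5 correlated with each other at 0.429, 0.445 and 0.457, although OV replicate 5 shared its slide with the other set. OV replicate 3 did not follow them, at −0.318, 0.00915 and −0.0791 with replicates 1, 2 and 5. OV replicates 1 and 2 also correlated with OV+E2 replicates 1 and 2 of their slide, at 0.174 to 0.304. Over all tested probes the values among OV+E2 replicates 3 to 5 were 0.476, 0.567 and 0.615, and those among OV replicates 1, 2 and 5 were −0.0114, −0.0114 and 0.277. These are descriptions over probes of the same arrays. All 3 OV+E2 arrays of slide 2 lay below the other 6 arrays for 23 Olr probes (12.5%, background 5.23%) and above them for 24 (13%, background 4.27%).

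Olr1460 and Olr1867 show the pattern in the lower direction. Olr1460 read −4.06, −3.84, −4.22 and −3.18 in OV and −4.55, −4.47, −7.25, −5.87 and −6.81 in OV+E2, and Olr1867 read −4.30, −4.07, −3.79 and −3.41 and −4.50, −4.57, −6.15, −7.27 and −6.84. OV+E2 replicates 1 and 2 lay just below the lowest OV array, and the other 3 lay far below it. Those 3 read near or below the lowest signals well above background on their arrays, −5.74, −5.87 and −5.56. The size of that gap thus rests on signals near background, and these values support nothing beyond themselves. These 2 probes were chosen after their values were seen. Limma's array weights give a noisier array less weight. With them 41 Olr probes passed an adjusted p under 0.05 (22.3%, background 11.6%), 35 of them lower (background 7.53%) and 6 higher (background 4.05%). The weights were 0.472, 4.25, 0.0489 and 0.820 for OV replicates 1, 2, 3 and 5. The OV level in that fit thus rested largely on OV replicate 2. Of 180 Olr probes with values in the authors' deposited table, 1 passed an adjusted p under 0.05 in limma's test (0.556%, background 0.23%). It was Olr1347, at −1.39 in OV+E2 against OV with an adjusted p of 0.0487 (background 0.153% lower and 0.0767% higher). Olr1347 no longer passed when OV replicate 3 was left out of that table (adjusted p = 0.147 in limma's test) or when slide was a block (adjusted p = 0.0877). At an unadjusted p under 0.05, 51 of the 180 were lower (background 10.4%) and 18 higher (background 8.47%). It read 54.5, 65.6, 77.7 and 78.6 in OV and 37.3, 34.5, 21.7, 20.7 and 21.2 in OV+E2 on that table's linear scale.

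**Figure D5:**
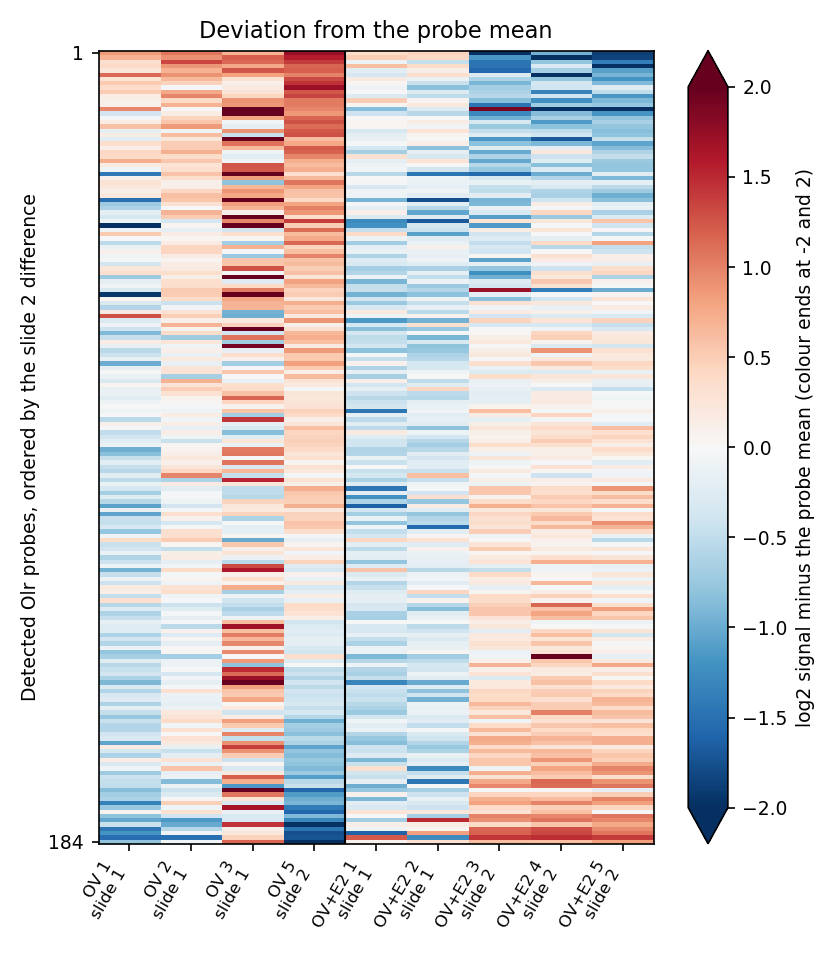
Log2 signal minus the probe's mean over 9 arrays (colour, from −2 in blue to 2 in red) for the 184 detected Olr probes (rows, ordered by their difference on slide 2) on each array (columns, OV left and OV+E2 right of the line). The 3 OV+E2 arrays of slide 2 share one pattern, OV replicate 5 shows its opposite, and OV replicate 3 carries many of the strongest single values.

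The order of the rows in that map comes from slide 2 itself, so the contrast between its arrays is partly built in. The correlations above do not depend on that order.

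For other chemoreceptor families the share detected ran from 11.1% to 40%. The rule passed 16 of 101 probes of the vomeronasal type 1 receptors (Vom1r, 15.8%), 25 of 104 of type 2 (Vom2r, 24%), 2 of 18 trace amine-associated receptors (Taar, 11.1%), 2 of 5 sweet and umami taste receptors (Tas1r, 40%) and 5 of 37 bitter taste receptors (Tas2r, 13.5%). The median differences were −0.63 for Vom1r, with 8 of 16 lower and 1 higher at an unadjusted p under 0.05 (background 7.17% and 3.2%), and −0.10 for Vom2r, with 3 of 25 lower and 2 higher. No difference between these families and the olfactory receptors was tested.

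Much of the machinery through which olfactory receptors signal in the nose is also known from other brain cells. Of 16 listed genes of olfactory transduction 15 were tested and 13 were above background on all 9 arrays. None was called, with 9 lower and 6 higher and a median of −0.08, and 1 passed an unadjusted p under 0.05. That gene was Cngb1, the channel's modulatory subunit, which read −1.43, −1.26, −0.51 and −1.33 in OV and −1.76, −1.78, −1.46, −1.69 and −1.66 in OV+E2, a difference of −0.54 (SE 0.19, n = 4 and 5, adjusted p = 0.373) in limma's test. Gnal, the G protein alpha subunit of the pathway and abundant in striatum, read 0.84, 0.83, −0.35 and 0.98 and 0.80, 0.88, 1.11, 1.19 and 1.02; its difference of 0.43 (SE 0.26) was 0.12 without OV replicate 3. Adcy3 was at 0.13 (SE 0.13), the stimulatory G protein gene Gnas at −0.35 (SE 0.18) and the chloride importer gene Slc12a2 at 0.28 (SE 0.20). Without OV replicate 3, Adcy3 was at 0.04, Gnas at −0.16, Slc12a2 at 0.08 and Cngb1 at −0.33. Cnga2, the channel subunit that defines the sensory neurons, was above background on 4 arrays with 1 probe and on 0 with the other, and Cnga4 was on 0 arrays.

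Genes for the trafficking and choice of receptors were mostly higher by sign. Rtp1 and Rtp2, the chaperones that bring receptors to the surface, were above background on 3 and 2 arrays and were not tested. Of the 10 genes 8 were tested, with 1 lower and 7 higher and a median of 0.07, and none was called. Emx2, a transcription factor of receptor choice and of the cortex, was higher by 0.34 (SE 0.11, n = 4 and 5, adjusted p = 0.364) in limma's test. It alone passed an unadjusted p under 0.05 (background 3.2% higher). Kdm1a, Lhx2 and Atf5 were at 0.30 (SE 0.22), 0.20 (SE 0.18) and −0.17 (SE 0.18). Without OV replicate 3, Emx2 was at 0.23, Kdm1a at 0.04, Lhx2 at −0.0049 and Atf5 at 0.01. Ebf1 and Lbr turned from higher to −0.02 and −0.06. None of Lhx2, Atf5, Ebf1 and Lbr thus has a settled direction.

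Markers of olfactory sensory neurons were sparse. Of 11, 6 were tested, and Stoml3 and Cnga4 were on 0 arrays. Of the 6, 5 were lower and 1 higher in OV+E2, none was called, and 2 were lower at an unadjusted p under 0.05 (background 7.17%): Cngb1, given above, and S100a5, a calcium-binding protein of these neurons, named after its value was seen. S100a5 read −1.95, −3.42, −3.55 and −3.26 in OV and −4.07, −4.02, −3.84, −4.80 and −4.36 in OV+E2, a difference of −1.18 (SE 0.34, n = 4 and 5, adjusted p = 0.295) in limma's test. Every OV array lay above every OV+E2 array, and the differences on the slides were −1.07 and −1.08. Omp, the marker of mature sensory neurons, was the 1 that was higher. It was above background on 2 OV and 5 OV+E2 arrays with its brighter probe and on none with the other, at −4.14, −3.89, −3.84 and −5.20 in OV and −4.61, −4.61, −3.48, −3.36 and −2.90 in OV+E2. Its difference was −0.66 on slide 1 and 1.95 on slide 2.

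Some markers of other cells were lower, as most of the receptors were. At an unadjusted p under 0.05, 3 of 8 microglia markers, 3 of 5 red cell markers and 2 of 5 endothelial markers were lower. The background was 7.17% of all probes. None of these 3 lists had a marker higher at that threshold, and none was called. By sign alone the lists were mixed, with 4 microglia markers lower and 4 higher. Red cell and endothelial markers each had 3 lower and 2 higher. Lower at that threshold were the microglia markers Aif1 at −0.39 (SE 0.12) and the integrin gene Itgam at −0.58 (SE 0.11). So was the chemokine receptor gene Cx3cr1 at −0.74 (SE 0.29). Without OV replicate 3 they were at −0.29, −0.53 and −0.47. Lower too were the red cell markers Alas2, Slc4a1 and Ahsp and the endothelial markers Vwf and Slco1a4. All of these were named after their values were seen. Without OV replicate 3, Hba-a1, Hbb, Csf1r and Cldn5 turned from higher to lower, at −0.22, −0.19, −0.09 and −0.09. Of 8 neuron markers, all above background on every array, 8 were higher, 1 of them (Slc17a7) at an unadjusted p under 0.05 (background 3.2%). Without OV replicate 3, Snap25 was at −0.011 and Gad2 at −0.0095, and the other neuron markers stayed above 0. No marker of the olfactory bulb, choroid plexus or amygdala regions passed that threshold; 3 of 4 bulb markers were lower and 5 of 5 choroid plexus markers higher, and of 8 tested amygdala region markers 3 were lower and 5 higher.

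Summed signals of the lists, on a linear scale where 1 is the 75th percentile, were often carried by a single gene. Gng13, which other neurons also express, made 96% to 97.7% of the sensory neuron sum, which ran from 18 to 33.4 in OV and from 20.1 to 22.1 in OV+E2. Tbx21 made 92.2% to 98.2% of the bulb sum, from 72 to 327 in OV and from 55.8 to 75.5 in OV+E2, with the highest value on OV replicate 3. Ttr made 81.7% to 98.9% of the choroid plexus sum, from 13.1 to 752 in OV, where replicates 2 and 3 were the lowest and the highest, and from 255 to 480 in OV+E2. Neuron markers ran from 126 to 168 and from 164 to 175, and amygdala region markers from 33.2 to 48.9 and from 37.7 to 54.2. Microglia markers ran from 45 to 65.4 and from 42.2 to 47.1, endothelial markers from 15.3 to 24 and from 13 to 15.7, and red cell markers from 3.27 to 6.26 and from 4.22 to 5.69. The part of these markers in the olfactory receptor values was not tested.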

How the data were processed

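Amygdala RNA (200 ng per rat) was labelled with Cy3 and hybridised to 1-colour Agilent 8x60K arrays, 1 rat per array. Per the file headers, the scanner files held spot intensity values from Agilent Feature Extraction 10.7.3.1 (protocol GE1_107_Sep09), with background already subtracted, and probe positions in build rn4. The submitters' processing notes name version 9.1. The authors' deposited value table held linear intensity values per probe, which for 8 of 9 arrays equalled the scanner intensities scaled by the 75th percentile.

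Here, spots of a probe were averaged, log2 was taken and each array's 75th percentile subtracted. Control spots were left out. Probes well above background on at least 4 arrays (spot share at least 0.5) were tested with lmFit and eBayes of limma 3.58.1 in R 4.3.3, OV+E2 minus OV, with Benjamini-Hochberg adjustment over all 30215 probes. Python 3.11.15 was used for the descriptions. The 9 arrays limit the precision. In data simulated over 30175 probes, 22% of changes of 1.5-fold, 44% of 2-fold, 70% of 3-fold and 86% of 4-fold were called, with 4 unchanged probes. Each simulated probe had independent noise of its fitted spread, without a slide effect or a dim array. Probes of all signal levels were used, so these rates need not hold for the dim Olr probes.

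The probes, gene lists and tests were chosen with earlier results of these data known. The rule for naming took the 10 probes of smallest p in each direction, the 8 of highest mean signal, genes with a pair of detected probes, the 2 brightest probes on each side of the detection threshold, and from the transduction and trafficking lists the 4 genes of smallest p each with Omp, Cnga2, Gnal, Adcy3, Rtp1 and Rtp2. A listed gene was represented by its brightest probe. Alternatives covered background correction (normexp, offset 50), scaling, the filter, slide, replicate block, array weights, the authors' values and leaving out each array. The fits of slide and the slide 1 differences without OV replicate 3, and the fits of slide on the authors' values and of the difference between slides were chosen after seeing the data. Replicate numbers did not pair the rats: deviations of same-numbered rats correlated at 0.170, −0.0760, −0.0109 and 0.105 for numbers 1, 2, 3 and 5.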

Additional observations from a re-analysis of the deposited data

Results flagged for a closer look

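Among the 64 groups formed by 32 named probes, 5 held an array far from the rest of its group, and chance flags about 1 group in 20. Over all detected probes it was 16 of 368 groups, with OV replicate 3 standing apart in 6 and OV+E2 replicate 1 in 4. OV+E2 replicate 2 read 0.37 for Olr1335, above the other 4 arrays of its group, which ended at −0.25. For Olr1410, OV replicate 3 read −5.26, above the other 3 OV arrays, which ended at −7.22. In the same probe OV+E2 replicate 2 read −6.98, below the others, which began at −4.49. OV+E2 replicate 1 read −7.17 for Olr1607, below the others, which began at −4.74, and −5.38 for Olr728, below the others, which began at −3.78.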

How the results depend on the processing

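For 43 named results, 991 values under alternatives were computed; 902 kept direction and side of the threshold, 37 newly passed it and 52 turned sign. Over all probes the calls numbered 9 without a filter, 1125 within slide 2, 69 with the authors' values (1 without OV replicate 3, 26 with slide), 3499 with array weights, 1 with slide and without OV replicate 3, and 0 to 1 with an array left out. Olr probes called numbered 1 without a filter, 55 within slide 2, 1 with the authors' values and 41 with array weights. Without a filter all 1250 Olr probes were counted, most of them undetected, and none of the 184 detected ones was called. In that fit 169 of the 1250 were lower at an unadjusted p under 0.05, and 41 of the 184 (background 7.98%). Lower ones otherwise numbered 19 of the 68 on all 9 arrays, 14 within slide 1 (background 1.18%) and 34 to 58 with an array left out. No share over all probes is given for the other filters, the scalings or the replicate block. For arrays left out it is given only for OV replicate 3. Counts of lower or higher probes in the rest have no background and cannot be compared between settings. Higher ones numbered 0 after normexp, on all 9 arrays and within slide 1, 12 after quantile normalization or median centring, 3 with 2 arrays of each group, 44 within slide 2, 18 with the authors' values (11 with slide), 17 with array weights, and 4 to 16 with an array left out (10 without OV replicate 3, 16 without OV+E2 replicate 1). The median without a filter was −0.55 over all 1250 Olr probes, −0.14 over the 184 detected ones and −0.13 over all probes. With an array left out it was −0.25 to −0.04 over the 184, nearest 0 without OV replicate 3. With the replicate block 43 were lower, 3 higher, the median was −0.24 and 0 were called. Class I receptors on all 9 arrays made 5.51%.

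Sign turned for these, and the cause was not tested. After normexp: Adcy3 −0.12, Omp −0.13, Olr1307 −0.033, Olr1349 −0.019, Olr1410 −0.0049, Olr1607 −0.16, Olr658 −0.18, Olr821 −0.13, the first Olr528 probe −0.026 and the Olr875 probes −0.23 and −0.31. Within slide 1: Omp −0.66, Olr1349 −0.18, Olr1607 −0.061, Olr528 −0.48, Olr875 −0.36 and −0.035. Within slide 2: Atf5 0.049, Slc12a2 −0.047, Olr1262 1.51, Olr1375 0.15 and the second Olr875 probe −0.030. With slide as a block: Olr528 −0.0021 and Olr875 −0.033, and without OV replicate 3 as well, Atf5 0.070, Olr1262 0.61, Olr1375 0.021 and Olr875 −0.12. With the authors' values: Atf5 0.033 and Olr1262 0.84, without OV replicate 3 Atf5 0.0128, Lhx2 −0.00464, Olr1262 0.63 and Olr1375 0.028, and with slide Atf5 0.10, Gnal −0.00252, Olr1262 0.77 and Olr875 −0.084. Quantile normalization gave Cnga2 0.30, median centring Olr1375 0.028, array weights Olr1262 0.37 and the replicate block Olr528 −0.046. With an array left out, Atf5 ran from −0.28 to 0.0128, Lhx2 from −0.00494 to 0.31, Olr1262 from −1.39 to 0.63, Olr1375 from −0.14 to 0.0275, Cnga2 from −0.31 to 0.039 and Olr528 from −0.15 to 0.30. Atf5, Lhx2, Olr1262 and Olr1375 turned without OV replicate 3, and Cnga2 without OV replicate 5. Signals near background limit all dim probes.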

Other observations

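A receptor outside the detected set gave the smallest adjusted p among Olr probes when no filter was used. The probe of Olr532 (Or8h10b, chr3:70373905-70373964 in rn4) stayed at background level on all 9 arrays. It read −6.02, −5.81, −5.61 and −5.64 on OV replicates 1, 2, 3 and 5, and −7.46, −7.42, −7.54, −7.56 and −7.64 on OV+E2 replicates 1 to 5. All OV arrays lay above all OV+E2 arrays (adjusted p = 0.00706 in limma's test over 45598 probes), but both groups were below background, so no fold is given. This probe was picked out after its values were seen.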
